A study of Hordeum vulgare with 12 samples.

Results

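miR444 is a family of miRNAs described in monocots such as the cereals. It was described here through the 8 listed sequences whose miRNA names give miR444 more often than any other family, out of 3258 listed sequences. No name of another family occurred in any of the 8. The small RNA libraries were made from Golden Promise, a barley (Hordeum vulgare) cultivar. Shoots and roots were taken from plants 2 weeks old, grown with 2 seedlings to a pot of perlite under 16 h of light a day at 22 °C. Control plants received a medium with 28 mM NH4NO3 and nitrogen-excess plants the same medium with 280 mM NH4NO3, which gave 4 groups (control shoot, nitrogen-excess shoot, control root and nitrogen-excess root) of 3 biological replicates, 12 libraries in all. The sources used here do not state whether a replicate pooled several plants.

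In rice, miR444 guides the cleavage of mRNAs of MADS-box transcription factors of the AGL17 clade, and its precursors are transcribed from the strand opposite to those target genes. The same clade holds ANR1 of Arabidopsis, a regulator of root growth in nitrate. Changed miR444 levels in rice alter how roots respond to nitrate, and other work in rice ties the family to tillering and to antiviral RNA silencing. 1 precursor can give several mature sequences in successive or overlapping positions, called registers, and the digit after the point in the rice names marks them.

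The 8 sequences are shown because the results below turn on which register and which variant was counted. They are written 5′ to 3′ as deposited, with T for U, and capitals mark the seed (bases 2 to 8), the part that leads target pairing.
miR444b.1: tGTTGTCTcaagcttgctgcc
miR444d.2: tGCAGTTGctgcctcaagctt
hvu-miR444b: tGCAGTTGctgtctcaagctt
miR444b.2: tGCAGTTGttgtctcaagctt
miR444f: tGCAGTTGttgcctcaagctt
hvu-miR444a: tTGCTGCCtcaagcttgctgc
miR444d.3: tTGTGGCTttcttgcaagttg
miR444a-5p: gCTAGAGGtggcaactgcata

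All 8 were 21 nt long, and 7 began with T, the first base of most plant miRNAs that enter ARGONAUTE1. They fell into 5 seeds. miR444d.2, hvu-miR444b, miR444b.2 and miR444f shared 1 seed and 1 register, and differed from each other only at positions 9 and 12, counted from 1 at the 5′ end. Relative to miR444d.2, hvu-miR444b carried C12T, miR444f carried C9T and miR444b.2 carried both C9T and C12T. miR444b.1 began 6 nt downstream of the start of miR444b.2 and matched it over 15 nt with 0 mismatches, so the pair are shifted registers of 1 sequence. hvu-miR444a stood in the same way to miR444d.2, beginning 5 nt downstream and matching over 16 nt with 0 mismatches. miR444d.3 and miR444a-5p overlapped none of the others. No listed sequence outside the family overlapped a member by 15 nt or more with at most 2 mismatches, and no member lay inside another listed sequence. The sources used here do not state how many mismatches the authors' counting allowed, so reads could have been split between the near-identical members of the shared seed.

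Total counts over all listed sequences ranged from 245176 to 2246495 per library, which leaves out reads of unlisted sequences. Levels are given in CPM, the count scaled to a common library total after TMM normalization over all 12 libraries, and fold changes come from fits to the groups compared. Before any result, 2 libraries need naming. On a scale where the mean shoot library is 0 and the mean root library is 1, computed on 172 sequences without miR444, the other 10 libraries lay between -0.35 and 0.04 (shoot) and between 0.76 and 1.36 (root). Against their labels, nitrogen-excess shoot 3 had a position of 1.06 and control root 3 one of -0.19. Labels are used as given, and comparisons of miR444 between groups are given with and without these libraries.

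The family was carried by miR444b.1, which held 93.7% of its 156819 counts. miR444d.2 held 3.45%, hvu-miR444b 1.95%, miR444b.2 0.578% and miR444d.3 0.305%. These 5 sequences had counts in all 12 libraries. hvu-miR444a, which carries the name of a barley entry as well as wheat, rice and Brachypodium names, had 42 counts, miR444f had 6 and miR444a-5p had 0. The most abundant member thus bore only the rice names osa-miR444b.1 and osa-miR444c.1. It ranked 10th to 11th among all sequences by mean level in each of the 4 groups.

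The counts of miR444b.1 in control shoot were 15403, 22381 and 18614, and those under excess nitrogen 22033, 3200 and 4679. Control root had 9383, 4092 and 11204, and root under excess nitrogen had 2589, 7777 and 25564. As a share of all listed counts it ranged from 0.356% (95% Wilson interval 0.345% to 0.367%) in control root 2 to 1.91% (1.86% to 1.96%) in that labelled nitrogen-excess shoot 3, and the interval covers counting error only. After scaling, its level was 9884 ± 1120 CPM in control shoot, 9879 ± 9334 in nitrogen-excess shoot, 11270 ± 2827 in control root and 9859 ± 2624 in nitrogen-excess root (SD, n = 3 each). Without the libraries that stand apart it was 4514 CPM in nitrogen-excess shoot and 12092 CPM in control root (n = 2 each). The standard deviation of its log2 level over the 12 libraries was 0.65, against a median of 1.29 over all sequences tested, and 94.9% of those sequences varied more.

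**Figure D1:**
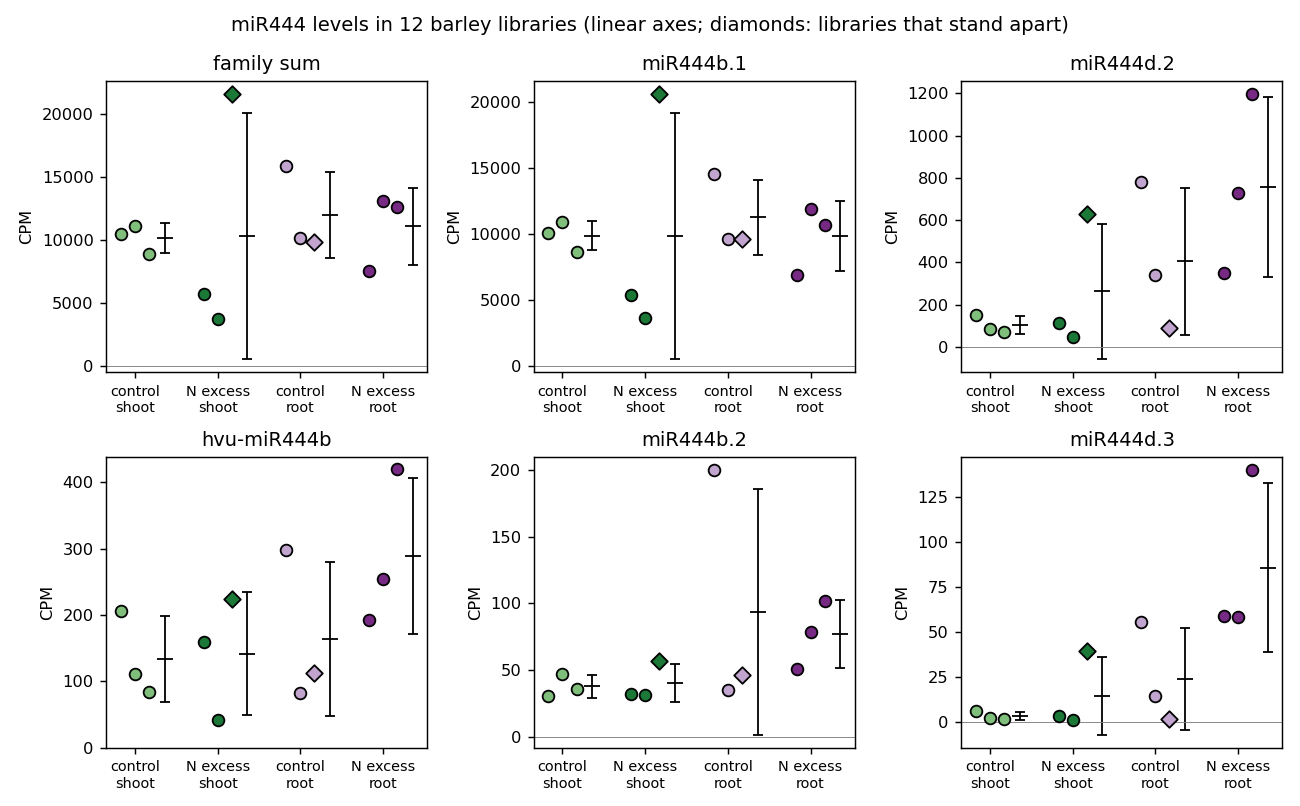
Levels of the miR444 family sum and of its 5 tested sequences in CPM (linear axes), with points for the 12 libraries (replicates 1 to 3 from left to right in each group), diamonds for the libraries labelled nitrogen-excess shoot 3 and control root 3, and dashes with bars for the mean ± SD of each group of 3. miR444b.1 has similar means in the 4 groups with all libraries, but 4514 CPM in nitrogen-excess shoot without replicate 3. miR444d.2 and miR444d.3 are low in 5 of 6 shoot and high in 5 of 6 root libraries.

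In shoot, miR444 did not pass the test under nitrogen excess. Of the 4 members tested, 0 were called (edgeR's quasi-likelihood test, Benjamini-Hochberg adjusted over all sequences, lowest adjusted p = 0.658), beside 0 of 148 sequences in all (0%). None of the 4 had an unadjusted p below 0.05, beside 15 of 148 sequences. DESeq2 and limma-voom also called 0 of them, beside 8 and 1 of 148 sequences. miR444b.1 stood at a log2 fold change of -0.21 ± 0.77 (SE), miR444b.2 at -0.12 ± 0.76 and hvu-miR444b at -0.07 ± 0.83. miR444d.2 stood at 1.16 ± 0.94.

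Within the nitrogen-excess shoot group the libraries disagreed. miR444b.1 was at 5395 and 3633 CPM in replicates 1 and 2 and at 20608 CPM in replicate 3, the library that stands apart, against 10076, 10896 and 8681 CPM in the controls. Replicates 1 and 2 were therefore below all 3 controls and replicate 3 above them. Without replicate 3 its log2 fold change was -1.24 ± 0.56 (adjusted p = 0.555, edgeR, n = 3 against 2), still not called. In that fit 12.3% of 154 sequences had nitrogen-excess libraries all below the controls and 0% were called. miR444d.2 turned from 1.16 to -0.44 ± 0.66 without that library, and hvu-miR444b stood at -0.48 ± 0.74 and miR444b.2 at -0.36 ± 0.64.

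The family sum in shoot took either sign, depending on the processing, and was not called. The 8 members together had 16005, 22889 and 19026 counts in control shoot, against 23292, 3309 and 4895 under excess nitrogen. On counts summed per family its log2 fold change was 0.33 ± 0.75 (adjusted p = 0.812, edgeR), with an approximate 95% interval from -1.15 to 1.81, where 5 of 57 families (8.77%) were called. The median family stood at 0.60 in that fit, so miR444 lay 0.28 below it (-0.28). With DESeq2 size factors it stood at -0.088 around a median of 0.0085. Without the library labelled nitrogen-excess shoot 3 it was -0.83 ± 0.63 (adjusted p = 0.698), around a median of 0.16. The interval gives the changes compatible with these libraries, and the size that could be detected was not tested.

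In root, 0 of 5 members were called under nitrogen excess (edgeR, lowest adjusted p = 0.955), beside 0 of 146 sequences (0%). None had an unadjusted p below 0.05, beside 1 of 146 sequences. DESeq2 and limma-voom called 0 members, beside 0 of 146 sequences with each. miR444b.1 was at 14534, 9649 and 9628 CPM in control and at 6913, 11943 and 10722 CPM in nitrogen excess, with overlapping groups and a log2 fold change of -0.17 ± 0.77 (-0.15 ± 0.71 without the library labelled control root 3). The family sum stood at -0.08 ± 0.66 (adjusted p = 0.981, approximate 95% interval -1.38 to 1.22), and 0 of 65 families were called (0%). Without control root 3 it was at -0.07 ± 0.71.

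The rarest tested register had the largest root value in the family. miR444d.3 had 36, 6 and 2 counts in control root, against 22, 38 and 334 under excess nitrogen. Its level was 55.8, 14.1 and 1.72 CPM in the controls and 58.7, 58.4 and 140 CPM in nitrogen excess. The groups did not overlap, by a narrow margin, as was so in the same direction for 5.48% of the sequences tested. miR444d.3 passed the filter on low counts through the nitrogen-excess libraries, so this separation partly follows from the filter. Its log2 fold change was 1.89 ± 1.19 (adjusted p = 0.955, edgeR) and 1.58 ± 1.09 without the library labelled control root 3. It was 1.29 without nitrogen-excess root 3, which held 334 of its counts, and 3.54 without control root 1, and it was not called in either fit. In the authors' deposited table it stood at 2.26 with a p-value of 0.0401 and an adjusted p of 0.958. Of the 2 other members above 0 in root, miR444d.2 stood at 0.94 ± 1.00 and hvu-miR444b at 0.85 ± 0.92, and miR444b.2 was at -0.25 ± 0.99. Without control root 3 these 3 stood at 0.69 ± 0.88, 0.86 ± 0.94 and -0.36 ± 0.99.

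**Figure D2:**
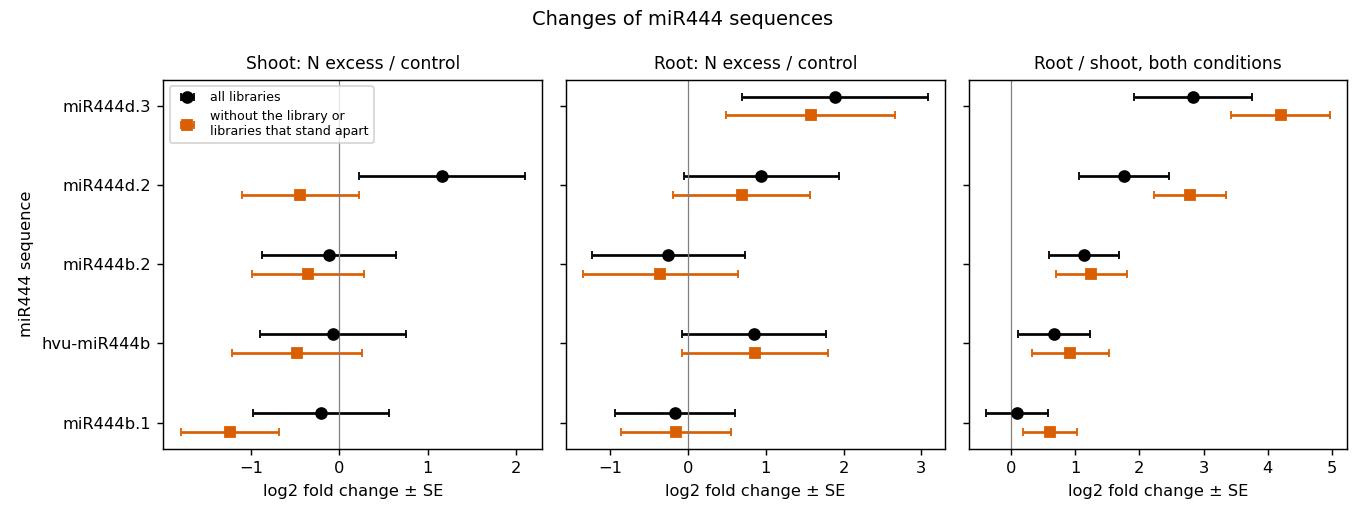
log2 fold changes ± SE (edgeR) of the 5 tested miR444 sequences for nitrogen excess over control in shoot (left) and in root (middle), and for root over shoot over both conditions (right); black circles use all libraries and orange squares leave out the library or both libraries that stand apart. In shoot miR444d.2 turns from 1.16 to -0.44, and for root over shoot miR444d.2 and miR444d.3 rise to 2.79 and 4.20. miR444d.3 was not tested in shoot.

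Whether the response differed between the tissues was tested as an interaction over all 12 libraries. 0 of 5 members (none with an unadjusted p below 0.05, and 0 by DESeq2 or limma-voom) and 0 of 177 sequences (0%) were called. DESeq2 and limma-voom also called 0 of 177 sequences, and 8 of 177 had an unadjusted p below 0.05 in the edgeR fit. For the family sum the root response exceeded the shoot response by 0.18 ± 0.88 (adjusted p = 0.970, edgeR, approximate 95% interval -1.54 to 1.90). Without both libraries that stand apart it was 0.66 ± 0.97 (adjusted p = 0.875), and 0 of 5 members were again called, beside 0% of sequences.

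All 5 members tested had root estimates above those of shoot, as did 107 of all 177 sequences tested (median 0.21). On counts summed per family, miR444 stood at -0.21. None of the 5 members passed the test with all libraries. Over both conditions, miR444b.1 was close to equal in root and shoot, with a log2 fold change of 0.09 ± 0.49 (adjusted p = 0.947, edgeR), a direction that turned with equal totals in place of TMM (-0.52). miR444d.2 was at 1.76 ± 0.70 (adjusted p = 0.132) and miR444d.3 at 2.84 ± 0.92 (adjusted p = 0.0924). Neither was called, and 0 of the 5 members were, beside 0.565% of 177 sequences. 2 members had an unadjusted p below 0.05, beside 46 of 177 sequences. DESeq2 called these 2 (miR444d.2 at 1.74, adjusted p = 0.0261, and miR444d.3 at 2.81, adjusted p = 0.00512) among 22.6% of sequences. limma-voom called miR444d.3 among 10.2%. In such bulk tissue, fewer cells of a type and less RNA per cell cannot be told apart.

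The result for these members turned on the 2 libraries that stand apart. miR444d.2 was at 151, 86.2 and 69.5 CPM in control shoot, and with excess nitrogen at 113, 45.4 and 629.8 CPM. In root it was at 781, 342 and 91.1 CPM in control and at 347, 729 and 1196 CPM in nitrogen excess. The shoot value of 629.8 belongs to the library labelled nitrogen-excess shoot 3 and the root value of 91.1 to the library labelled control root 3, and the other 5 shoot libraries (45.4 to 151 CPM) lay below the other 5 root libraries (342 to 1196 CPM). These levels carry TMM factors, from 0.37 in control root 2 to 1.82 in nitrogen-excess shoot 1. As a share of listed counts, control root 2 (0.0126%) lay below control shoot 1 (0.0177%), control shoot 2 (0.0146%) and nitrogen-excess shoot 1 (0.0205%). It lay above control shoot 3 (0.0121%) and nitrogen-excess shoot 2 (0.00513%). The separation of the tissues thus depended on the scaling.

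miR444d.3 followed the same pattern at a lower level. It was at 5.89, 2.43 and 1.40 CPM in control shoot, and with excess nitrogen at 3.18, 1.14 and 39.6 CPM. The 5 shoot libraries other than nitrogen-excess shoot 3 thus stayed below the 5 root libraries other than control root 3, which lay between 14.1 and 140 CPM. Counts behind the low values were few, from 1 to 13 in those 5 shoot libraries. As a share of listed counts, control root 2 (0.000522%) lay below control shoot 1 (0.000691%) and nitrogen-excess shoot 1 (0.000579%). miR444d.3 was not tested in shoot alone. It passed the filter on low counts through its root libraries, so its calls between the tissues partly follow from the filter.

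hvu-miR444b, the barley-named variant, was at 206, 111 and 83.5 CPM in control shoot, and with excess nitrogen at 159, 42.01 and 225 CPM. In control root it was at 297, 82.5 and 113 CPM, and with excess nitrogen at 192, 255 and 419.8 CPM. Shoot and root libraries overlapped, with a log2 fold change of 0.67 ± 0.57 for root over shoot (adjusted p = 0.479, edgeR). miR444b.2 was at 30.7, 47.2 and 35.9 CPM in control shoot, and with excess nitrogen at 32.6, 31.8 and 57.3 CPM. In control root it was at 199.8, 35.4 and 46.4 CPM, and with excess nitrogen at 50.7, 78.3 and 102 CPM. Control root 1 held the highest value and the tissues again overlapped, at 1.13 ± 0.55 (adjusted p = 0.201, edgeR).

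With both of the libraries that stand apart left out, root exceeded shoot by 2.79 ± 0.57 for miR444d.2 (adjusted p = 0.00113, edgeR) and by 4.20 ± 0.77 for miR444d.3 (adjusted p = 0.000565). Both were called, among 62 of 183 sequences (33.9%), of which 42 (23%) were higher in root. As above, miR444d.3 passed the filter on low counts through its root libraries, so its call here partly follows from the filter. miR444b.2 stood at 1.25 ± 0.55 (adjusted p = 0.0996), hvu-miR444b at 0.92 ± 0.60 (adjusted p = 0.269) and miR444b.1 at 0.60 ± 0.42 (adjusted p = 0.316), and none of these 3 was called. Leaving out libraries by their fit to their own tissue favours a difference between the tissues, and the calls are to be read beside the 33.9% of all sequences. The family sum, weighted by miR444b.1, was at -0.21 ± 0.41 with all libraries (adjusted p = 0.703, where 1.35% of 74 families were called). Without the pair it was at 0.35 ± 0.48 (adjusted p = 0.568, where 47.4% of 78 families were called).

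Within each condition the root and shoot comparisons rested on fewer libraries. In control plants miR444d.2 stood at 1.87 ± 0.88 (adjusted p = 0.369, edgeR), among 0% called of 144 sequences. 0 of 4 members were called by edgeR, DESeq2 or limma-voom, beside 0, 16 and 0 of 144 sequences. None of the 4 had an unadjusted p below 0.05 in the edgeR fit, beside 18 of 144. Without the library labelled control root 3 miR444d.2 was at 2.31 ± 0.61 (adjusted p = 0.0336) and was called, among 26.1% of 153 sequences. With equal totals in place of TMM and all libraries it was at 0.43 ± 0.78 and was not called. In nitrogen-excess plants miR444d.2 stood at 2.05 ± 1.05 (adjusted p = 0.484) and miR444d.3 at 3.39 ± 1.19 (adjusted p = 0.394). There 0 of 5 members were called by edgeR, DESeq2 or limma-voom, beside 0, 1 and 0 of 149 sequences. 1 member had an unadjusted p below 0.05 in the edgeR fit, beside 16 of 149 sequences. On the levels of that fit, the 3 root libraries lay above the 3 shoot libraries for miR444d.3, hvu-miR444b and miR444b.2, as was so in that direction for 12.1% of sequences. With the replicate number as a block, since same-numbered libraries of these plants deviated together, miR444d.3 was called at 3.83 ± 0.88 (adjusted p = 0.000952), among 12.1% of sequences called, and miR444d.2 was not at 2.31 ± 0.87 (adjusted p = 0.0599). That pairing was read from these data, and its replicate 3 pair includes the library labelled nitrogen-excess shoot 3. Without the library labelled nitrogen-excess shoot 3, miR444d.3 was also called, at 5.22 ± 1.16 (adjusted p = 0.032), among 16.5% of 170 sequences, and miR444d.2 stood at 3.30 ± 1.02 (adjusted p = 0.0513). miR444d.3 had 22, 38 and 334 counts in nitrogen-excess root, against 13, 1 and 9 in nitrogen-excess shoot. It passed the filter through the root libraries, so its calls and its separation here partly follow from the filter. The family sum was not called in either condition (0.34 ± 0.53, adjusted p = 0.839, and -0.11 ± 0.80, adjusted p = 0.959, beside 0% of families in each). Without the library that stands apart it was -0.04 ± 0.54 in control and 0.85 ± 0.84 in nitrogen-excess plants, and it was not called in either.

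Shares within the family need no scaling between libraries. miR444b.1 took 96.5 ± 1.26% of the family's counts in shoot and 92.0 ± 4.14% in root (SD, n = 6 each), a difference of -4.48 percentage points (two-sided exact permutation test, p = 0.0281, smallest possible p = 0.00216). The lowest shoot value was 94.6% and the highest 97.8%, and in root they were 85.2% and 97.5%. The highest root value was that of the library labelled control root 3, and without both libraries that stand apart the difference was -5.75 points (exact p = 0.0159). The library names fall into 3 sets by their prefix, here called A (replicate 1 of each group), B (the next 7) and C (nitrogen-excess root 3). Within set B, which holds both libraries that stand apart, the difference was -2.38 points (exact p = 0.2). Under nitrogen excess the share stood at 97.3 ± 0.906% in control and 95.6 ± 1.06% in excess in shoot, and at 94.7 ± 2.96% and 89.3 ± 3.53% in root (SD, n = 3 each). These differences of -1.66 and -5.37 points gave exact p of 0.2 and 0.1, where 3 against 3 libraries cannot go below 0.1. Without the libraries that stand apart they were -1.63 points in shoot (exact p = 0.3) and -3.98 points in root (exact p = 0.4). The root difference was -3.33 points without nitrogen-excess root 3 (exact p = 0.2). In root all 3 nitrogen-excess libraries (85.2% to 91.3%) lay below the controls (91.6% to 97.5%), by a narrow margin.

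Among the 4 sequences of the shared seed and register, the ratio of the 2 most abundant took different ranges in most shoot and root libraries. It was chosen after its values were seen and is given without a test. miR444d.2 per hvu-miR444b, which differ only by C12T, was 0.733, 0.773 and 0.832 in control shoot, against 0.709, 1.08 and 2.80 with excess nitrogen. Control root gave 2.63, 4.14 and 0.809, against 1.81, 2.86 and 2.85 with excess nitrogen. The 5 shoot libraries other than nitrogen-excess shoot 3 thus lay between 0.709 and 1.08, and the 5 root libraries other than control root 3 between 1.81 and 4.14, with the remaining pair on the side opposite to their labels. The conditions overlapped in both tissues.

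miR444d.2 took from 35.2% to 39.0% of the counts of these 4 sequences in the 5 shoot libraries and from 58.8% to 73.6% in the 5 root libraries. It took 69.1% in the library labelled nitrogen-excess shoot 3 and 36.4% in that labelled control root 3. miR444b.2 per hvu-miR444b, which differ only by C9T, did not separate the tissues, at 0.149 to 0.757 in all 6 shoot libraries and 0.243 to 0.672 in all 6 root libraries. The fourth combination of the variable positions, miR444f, was counted in only 3 libraries, with 2 counts each in control shoot 3, control root 2 and nitrogen-excess root 3.

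**Figure D3:**
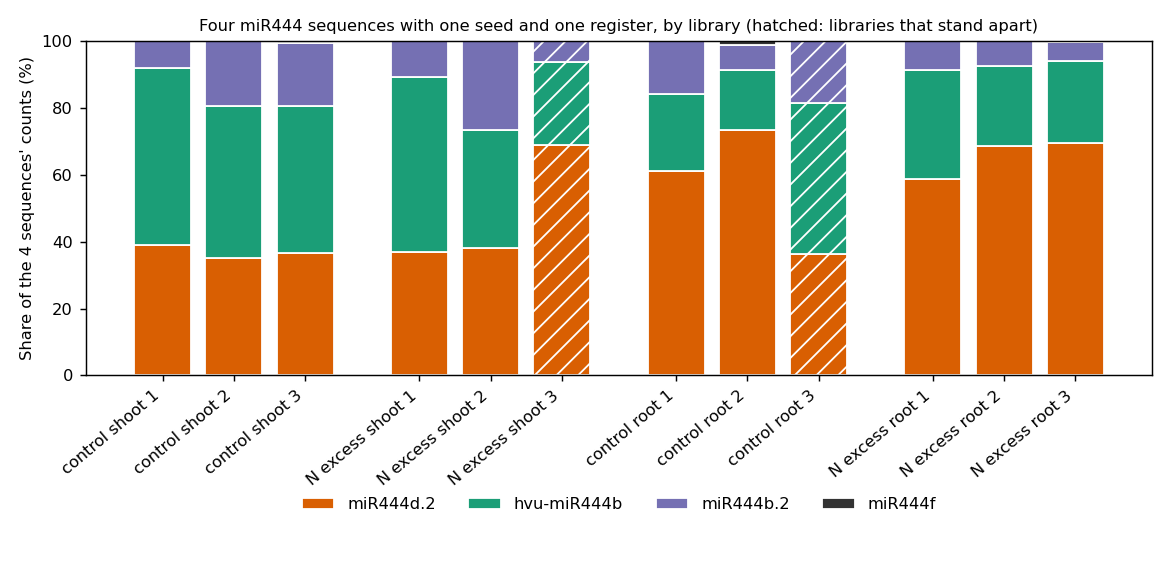
Share (%) of the summed counts of the 4 miR444 sequences with a shared seed and register that each took in each of the 12 libraries, as stacked bars from 0 to 100; hatching marks the libraries labelled nitrogen-excess shoot 3 and control root 3. miR444d.2 takes 35.2% to 39.0% in the other shoot libraries and 58.8% to 73.6% in the other root libraries.

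Of the registers named after rice miR444d, miR444d.2 and miR444d.3 also differed in ratio between most shoot and root libraries, by a narrow margin. The register miR444d.1 is among the names of hvu-miR444a. Counts of miR444d.2 per count of miR444d.3 ran from 25.7 to 49.7 in the 5 shoot libraries and from 5.91 to 24.2 in the 5 root libraries, with 15.9 in the library labelled nitrogen-excess shoot 3 and 53 in that labelled control root 3. The ratio in nitrogen-excess shoot 2 rests on 1 count of miR444d.3, that in control root 3 on 2 and that in control shoot 3 on 3. That in control shoot 2 rests on 5 counts. The nearest values, 25.7 in control shoot 1 and 24.2 in control root 2, rest on 9 and 6 counts. No test was made.

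The barley-named hvu-miR444a was nearly absent. hvu-miR444a had 0, 0 and 2 counts in control shoot, against 4, 3 and 0 with excess nitrogen. Control root gave 4, 13 and 0, against 3, 7 and 6 with excess nitrogen. It did not pass the filter on low counts in any comparison. Its shifted partner miR444d.2 had 5411 counts in all, so of this pair the upstream register had most counts. Of the other shifted pair the downstream register had most, and counts of miR444b.1 per count of miR444b.2 ran from 72.7 to 359.9 over the 12 libraries. miR444a-5p had 0 counts in every library, which, with 3 counts taken as the limit that a count of 0 allows, leaves room for a share of up to 0.000134% of listed counts in the library with the highest total and 0.00122% in that with the lowest.

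The sequences outside the family whose levels over the 12 libraries were most like those of miR444b.1 were ata-miR166d-5p, tae-miR9660-5p and ata-miR166e-5p. The root mean square difference of their centred log2 levels from those of miR444b.1 was 0.39, 0.46 and 0.55, against a median of 1.34 over the 172 sequences compared. The SD of the log2 level was 0.65 for miR444b.1 and 0.63, 0.68 and 0.44 for these 3. The median over all sequences tested was 1.29, so a sequence that varied little would also give a low difference. Other families reported in plant nitrogen responses (miR160, miR164, miR167, miR169, miR171 and miR393) gave no called sequence under nitrogen excess. Over all sequences, 0 of 148 in shoot and 0 of 146 in root were called. In shoot 13 of their 31 sequences were positive (median log2 fold change -0.15, against -0.07 over all 148). In root 12 of 27 were (-0.06, against -0.27 over all 146). The families differed in direction. miR169 was positive in 7 of 8 sequences in shoot (median 0.69) and 7 of 7 in root (1.75). For miR171 it was 1 of 6 (-0.70) and 0 of 5 (-0.81). Between the tissues 0 of 36 sequences of the listed families were called, beside 1 of 177 in all (median 0.05, against 0.21 over all 177). miR826 and miR5090 were on the same list and had no sequence that passed the filter.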

How the data were processed

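The authors' deposited tables, one for each tissue, hold whole-number counts for each listed sequence, signal columns in which, per the values, each deposited count is divided by 1 factor for its library, and the authors' log2 fold change and p-value columns. DESeq2 is named without a version, per the submitters' processing notes. The sources used here do not state the trimming, the counting tool or the mismatches allowed.

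The deposited counts were tested with edgeR 4.0.16 in R 4.3.3: TMM, filterByExpr (minimum count 10, total 15), quasi-likelihood test, Benjamini-Hochberg threshold 0.05, on all sequences and on sums for each family named most often. OLAs_528 was added to miR528. Standard errors were derived from each fold change with its F value, and approximate intervals are normal. CPM values for levels come from the deposited counts. Likeness used log2(CPM + 1). Shares within the family were compared by exact permutation. Alternatives, with DESeq2 1.42.0 and limma 3.58.1 among them, are given at the end; the fits were tested on simulated data.

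Members and lists were chosen with earlier results of these data known. Members with at least 10 counts were to be described in every library. Same-numbered libraries of nitrogen-excess shoot and root deviated together (correlations 0.52, 0.22 and 0.43 over 149 sequences). The fit with the number as a block was therefore printed for them beside the main test, which had no block. That pairing was read from these data, and its replicate 3 pair includes nitrogen-excess shoot 3, which stands apart. The library names share 1 of 3 prefixes, and the letters A (replicate 1 of each group), B (the next 7 libraries) and C (nitrogen-excess root 3) were given here to mark them; what a prefix stands for is not stated.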

Additional observations from a re-analysis of the deposited data

How the results depend on the processing

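Of the alternatives, most kept direction and call (442 of 538), and the cause of the others was not tested. Many values turned sign around 0 without being called.

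For the family sum in shoot (0.33), other scalings and filters gave -0.088 (DESeq2 size factors), -0.43 (equal totals), -0.26 (no filter), -0.11 (at least 20 counts in 3 libraries), -0.089 (DESeq2), -0.13 (name set B alone) and -0.11 (OLAs_528 apart, an alternative added after seeing the data, as was leaving out both libraries that stand apart). In root (-0.08) it was 0.18 with equal totals and 0.081 without a filter. Root against shoot in control plants (0.34) turned to -0.75 with equal totals, -0.21 without a filter and -0.25 in name set B. In nitrogen-excess plants (-0.11) it was 0.094 without a filter, 0.13 with at least 20 counts, 0.30 with limma-voom and 0.24 with the replicate block. Over both conditions (-0.21) it was 0.0022 with DESeq2 size factors, 0.0024 with DESeq2, 0.13 without a filter, 0.028 with OLAs_528 apart and 0.35 without both libraries. The interaction (0.18) was -0.19 with at least 20 counts.

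Single members turned in shoot with DESeq2 size factors (hvu-miR444b 0.068, miR444b.2 0.0057), at least 20 counts (hvu-miR444b 0.11), DESeq2 (hvu-miR444b 0.067) and name set B (miR444b.1 0.10, hvu-miR444b 0.23, miR444b.2 0.018). In root, equal totals gave miR444b.1 0.056 and miR444b.2 0.42, limma-voom gave miR444b.2 0.17, and name set B gave miR444b.1 0.053 and miR444b.2 0.67. Between the tissues miR444b.1 was -0.52 with equal totals and -0.27 in name set B, and miR444b.2 -0.0035 in name set B. The number of members called between the tissues rose from 0 to 2 without a filter, beside 45 of 697 sequences. Members below the count limit were then tested as well. It also rose to 2 with DESeq2 (beside 22.6% of sequences) and without both libraries (33.9%), and to 1 with limma-voom (10.2%). The share of miR444b.1 between the tissues was -2.38 points in name set B, which holds both libraries that stand apart, and lost its call.

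With the replicate block, miR444b.2 in root stood at 0.20, and 1 member was called between the tissues in nitrogen-excess plants, beside 12.1% of sequences. Elsewhere the block changed no call of a member, and there the numbers were not taken to pair the libraries. Replicate 1 libraries share a name prefix, as do those of replicate 2, which share it with 3 of replicate 3. Correlations for replicates 1, 2 and 3 were 0.50, 0.081 and 0.052 in shoot, 0.15, 0.50 and -0.23 in root, and 0.50, -0.060 and 0.13 in control plants. In each of these 2 of 6 libraries correlated best with their own number.

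Leaving out single libraries moved the family sum between -0.83 and 0.31 in shoot, -0.20 and 0.079 in root, -0.13 and 0.27 between tissues in control plants, -0.40 and 0.85 in nitrogen-excess plants, -0.33 and 0.24 over both, and -0.17 and 0.73 for the interaction. Members called ranged from 0 to 1, 0 to 1 and 0 to 2 in those 3 tissue comparisons. In control plants 1 was called without control root 3, beside 40 of 153 sequences. In nitrogen-excess plants 1 was called without nitrogen-excess shoot 3, beside 28 of 170. Over both conditions 2 were called without control root 3 (beside 51 of 186) and without nitrogen-excess shoot 3 (beside 40 of 183). There 1 was called without nitrogen-excess root 1 (beside 18 of 185). Ranges were -0.44 to 1.65 (miR444d.2), -0.48 to 0.35 (hvu-miR444b), -0.36 to 0.13 (miR444b.2) and -1.24 to 0.16 (miR444b.1) in shoot, -0.64 to 0.90 (miR444b.2) and -0.31 to 0.048 (miR444b.1) in root, and -0.31 to 0.54 (miR444b.1) between tissues. In root miR444d.3 ran from 1.29 to 3.54, miR444d.2 from 0.41 to 1.81 and hvu-miR444b from 0.44 to 1.56. Between tissues miR444d.3 ran from 2.34 to 3.75, miR444d.2 from 1.35 to 2.47, miR444b.2 from 0.70 to 1.25 and hvu-miR444b from 0.12 to 0.96. Within conditions miR444d.2 ran from 1.14 to 2.31 (control) and 1.04 to 3.30 (excess), and miR444d.3 from 2.17 to 5.22 (excess). The share of miR444b.1 by condition ran from -2.19 to -1.14 points in shoot and -6.93 to -3.33 in root (exact p up to 0.3 and 0.4). The share of miR444b.1 between tissues stayed between -5.57 and -3.12 points, with exact p of 0.00433 to 0.0498. Low counts limit miR444d.3 and hvu-miR444a in shoot.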
